A study of Homo sapiens with 2 samples.

Results

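SPRY2, SPRY4, SPRED1, SPRED2, DUSP4, DUSP5, DUSP6, ETV4, ETV5 and PHLDA1 are genes that the ERK pathway induces, and most of them feed back to restrain it. They were taken by name from the deposited expression values, where all 10 were found, each on 1 probe set, among 17249 named protein-coding genes. The values came from 2 whole-transcript arrays of DLD-1, an established human colorectal adenocarcinoma line. The siControl culture had received a negative control siRNA and the siYY1 culture a single siRNA against YY1, each at 5 nmol/L by lipid transfection, and RNA was taken after 3 days. Apart from the siRNA, both cultures shared the line, the medium and the dose. The study asked which genes differ in level when YY1, a zinc finger transcription factor, is knocked down. With 1 array a group there is no replicate, so the values carry neither an error nor a test and describe this pair of arrays alone. The level of YY1 itself was not analysed here, so the group names rest on the labels.

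In the RAS-ERK pathway, growth factor receptors act through adaptors and exchange factors on RAS, which starts the kinase cascade of RAF, MEK and ERK. Active ERK switches on transcription factors of the ETS and AP-1 families. Among its targets are Sprouty and SPRED proteins, which restrain the pathway at or above RAF, and dual-specificity phosphatases (DUSPs), which remove the activating phosphates from ERK. In colorectal cancer cells these genes are widely used as a transcript readout of ERK activity.

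Values are log2 expression after quantile normalization of the pair, and differences are siYY1 minus siControl on the same scale. The log2 scale was inferred from the range of the values. As deposited, the arrays differed by 0.18, 0.07 and -0.13 at their 25th, 50th and 75th percentiles. Of the 10 colorectal and epithelial markers named on the array, 7 reached the brightness minimum of 7.60, the median over genes of the higher of the 2 values. EPCAM, the epithelial adhesion molecule, was at 16.3 in siControl and 16.5 in siYY1. CDX1, LGALS4 and VIL1, also colorectal markers, were below the minimum on both arrays, with VIL1 nearest to it at 7.54 in siControl. Among 14 markers of fibroblasts, endothelium and leukocytes, 2 reached the minimum, and levels ran from 3.59 to 8.84. As a guide to background, 18 genes chosen as mainly restricted to other tissues lay between 3.06 and 7.59, both arrays pooled. TG in siControl set the lower end. POMC in siYY1 set the upper end, and in siControl POMC was also the highest of the 18, at 6.85. The siControl values of SPRY2, SPRY4, DUSP1, ETV1 and HBEGF below lie in this dim range only through the siYY1 value of POMC.

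Promoter sequence from RefSeq (GRCh38.p14), covering 250 bases before to 50 bases from a start site, was at hand for 6 of the 10 genes in 9 windows: SPRY2, SPRY4, SPRED1, SPRED2, DUSP6 and PHLDA1. A window is shown for each of the 3 of these genes with the largest differences, so that motif letters of YY1 can be set beside the values, and for SPRY2, which has 3 windows, it is the most upstream. They are chr13:80341077-80341376 for SPRY2, chr5:142324198-142324497 for SPRY4 and chr12:89352452-89352751 for DUSP6, all on the minus strand and written 5′ to 3′ along the gene. Capitals mark a match to any motif searched.
SPRY2: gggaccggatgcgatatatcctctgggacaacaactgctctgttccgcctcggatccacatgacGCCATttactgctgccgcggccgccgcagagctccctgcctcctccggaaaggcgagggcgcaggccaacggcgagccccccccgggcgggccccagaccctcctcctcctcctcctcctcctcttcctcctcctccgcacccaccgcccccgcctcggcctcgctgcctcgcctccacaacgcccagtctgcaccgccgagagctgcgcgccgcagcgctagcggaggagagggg
SPRY4: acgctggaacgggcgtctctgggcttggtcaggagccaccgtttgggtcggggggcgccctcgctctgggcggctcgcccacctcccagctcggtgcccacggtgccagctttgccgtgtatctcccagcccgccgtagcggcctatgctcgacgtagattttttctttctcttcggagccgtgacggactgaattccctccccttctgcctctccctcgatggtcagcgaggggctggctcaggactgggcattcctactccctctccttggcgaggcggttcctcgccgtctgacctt
DUSP6: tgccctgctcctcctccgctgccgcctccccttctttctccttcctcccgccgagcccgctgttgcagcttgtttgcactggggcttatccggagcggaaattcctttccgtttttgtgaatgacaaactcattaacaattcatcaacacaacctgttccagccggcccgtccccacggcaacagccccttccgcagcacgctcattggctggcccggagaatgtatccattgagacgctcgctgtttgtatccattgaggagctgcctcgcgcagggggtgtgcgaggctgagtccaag
The SPRY2 window held the short YY1 core, read as GCCAT on this strand and starting at base 65 of the window. No motif searched matched in the SPRY4 and DUSP6 windows shown.

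Both strands were searched for each motif. The longer YY1 motif, AANATGGC, was in 0 of the 9 windows, and 6.58% of all 35116 promoter windows held it. Its core, ATGGC, which lies inside the longer motif, was in 3 of the 9 windows, 1 each of SPRY2, SPRED2 and PHLDA1, against 37.8% of all windows. The AP-1 motif TGANTCA was in 1 of the 9, a SPRED2 window, against 7.71% of all. The ETS motif CCGGAAG, the CRE motif TGACGTCA and the CArG box of SRF were in 0 of the 9, against 10.3%, 1.85% and 1.29% of all. These are letter matches in short windows and describe no binding.

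Of the 10 genes, 9 were higher in siYY1 and 1 was lower. The 10 were chosen with earlier results of these data known. The shares of all genes set beside them are therefore a description and no independent support. SPRY2 and ETV5 were at least 2-fold higher, and no member was at least 2-fold lower. Over all 17249 named protein-coding genes, 4.61% were at least 2-fold higher, 5.67% at least 2-fold lower and 49.6% above 0. Among the 8625 that reached the brightness minimum, as 9 of the 10 members did, 7.97% passed 2-fold upward and 9.28% downward, and the share above 0 was again 49.6%. SPRY2 and SPRY4 reached this minimum only through their siYY1 values, since their siControl values of 7.40 and 7.46 were below 7.60. For these genes the filter thus depends on the difference itself. The median difference of the 10 members was 0.59, a 1.51-fold higher level, beside a median of -0.0047 over all genes. At 1.5-fold, 5 members were higher and 1 was lower, against 13.7% and 15.2% of all genes. Among genes at or above the brightness minimum, 19.5% were at least 1.5-fold higher.

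**Figure D1:**
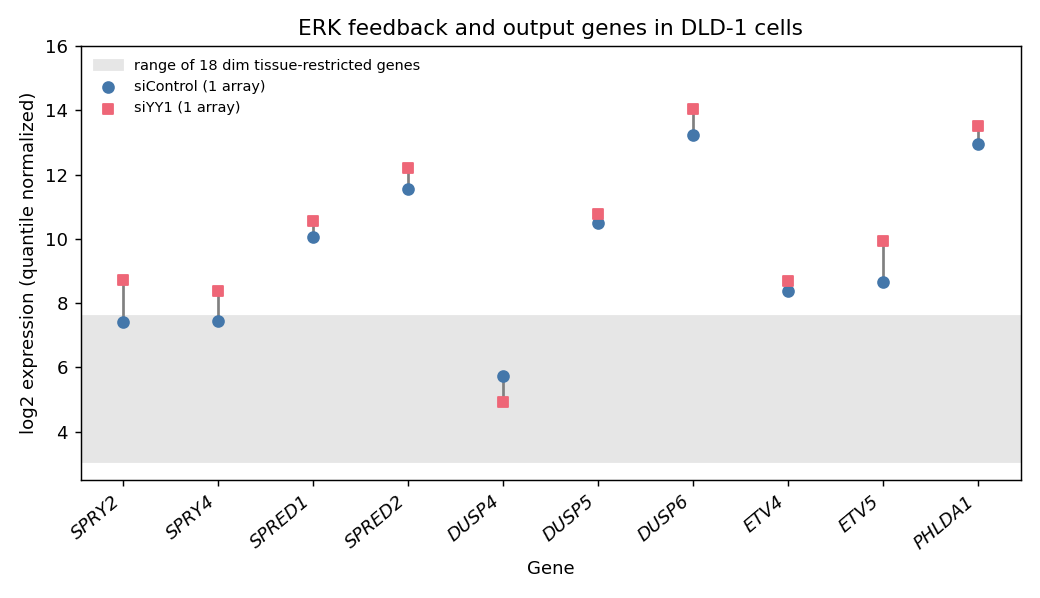
Log2 expression (quantile normalized, vertical axis) of the 10 genes (horizontal axis) on the siControl array (circles) and the siYY1 array (squares), 1 array each, with a line joining each pair. The grey band runs from 3.06 to 7.59, the range of 18 dim tissue-restricted genes over both arrays. The square lies above the circle for 9 genes and below it for DUSP4, which lies in the band on both arrays.

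SPRY2 and SPRY4 encode Sprouty proteins, which block receptor signals to RAS and RAF. SPRY2 had a value of 7.40 in siControl and 8.72 in siYY1. Its difference of 1.32, a 2.49-fold higher level, was the highest of the 10 and ranked 337 of 17249 genes. SPRY4 had 7.46 in siControl against 8.37 in siYY1 and differed by 0.91 or 1.88-fold. Both genes had their siControl value within the range of the dim tissue-restricted genes, pooled over both arrays, and their siYY1 value above it. Within siControl, both values were above the highest of these dim genes, POMC at 6.85. Background can hide the true size of differences between low values, so the fold of both genes is uncertain.

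The other Sprouty genes of the array did not share a direction. SPRY1 was bright on both arrays, at 10.9 in siControl and 11.9 in siYY1, and its difference of 1.06 passed 2-fold. As deposited, its difference was 0.94 and did not pass. SPRY3 was at 6.05 and 4.71, a difference of -1.34, with both values inside the dim range. Of the 4 Sprouty genes, 3 were thus higher and 1 was lower. SPRY3 was dim on both arrays, and SPRY2 and SPRY4 had their siControl values in the dim range.

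SPRED1 and SPRED2 encode Sprouty-related proteins that bring neurofibromin, a GTPase-activating protein, to RAS. SPRED1 had 10.1 in siControl against 10.6 in siYY1 and differed by 0.51 or 1.43-fold. SPRED2 was at 11.6 and 12.2, a difference of 0.63 or 1.55-fold. The SPRED pair lay well above the dim range on both arrays, and the 2 differences were 0.12 log2 units apart. SPRED3, the third gene of the family, was inside the dim range, at 3.21 and 3.27. NF1, which encodes neurofibromin, had 10.7 in siControl against 12.0 in siYY1 and differed by 1.23.

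DUSP4, DUSP5 and DUSP6 encode phosphatases of MAP kinases: DUSP6 acts on ERK in the cytoplasm, DUSP5 on ERK in the nucleus, and DUSP4 is a nuclear enzyme with a broader range. DUSP6 had 13.2 in siControl against 14.0 in siYY1 and differed by 0.81 or 1.76-fold. DUSP5 was at 10.5 and 10.8, a difference of 0.30 or 1.23-fold. DUSP4 was the only member lower in siYY1, with 5.73 in siControl against 4.92 in siYY1, and differed by -0.82. Both of its values were within the range of the 18 dim tissue-restricted genes. Of these, only MBP, a myelin gene, differed farther downward, at -1.35, and the next lowest was PRM1 at -0.53.

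Among 7 other MAP kinase phosphatases, 5 were higher, and none of them passed 2-fold. DUSP16, a phosphatase that prefers JNK and p38, had 10.0 in siControl against 11.0 in siYY1 and differed by 0.95. DUSP1, an immediate early gene, was the lowest, at 7.41 and 6.15, a difference of -1.27. Both DUSP1 values were in the dim range, but that of siControl was above all the dim genes on its own array. Over all 10 phosphatases the median difference was 0.29, with 7 above 0. DUSP9, at -0.12, changed side with the values as deposited, at 0.04.

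ETV4 and ETV5 belong to the PEA3 group of ETS transcription factors, whose genes ERK induces and which act on genes of growth and invasion. ETV5 had 8.65 in siControl against 9.94 in siYY1 and differed by 1.29 or 2.44-fold, which ranked 369 of 17249. ETV4 was at 8.38 and 8.70, a difference of 0.32 or 1.25-fold. The third PEA3 gene, ETV1, had 7.43 in siControl against 5.95 in siYY1 and differed by -1.48. The PEA3 genes thus covered a span of 2.77 log2 units between ETV5 and ETV1. Both ETV1 values were in the dim range, but that of siControl was above all the dim genes on its own array. Between ETV5 and ETV4, both above the dim range, the gap was 0.97.

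PHLDA1 encodes a pleckstrin homology-like protein whose transcript is part of common ERK signatures. It had 12.9 in siControl against 13.5 in siYY1 and differed by 0.56 or 1.47-fold. Like those of DUSP6, its values were far above the dim range on both arrays, and neither gene passed 2-fold.

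**Figure D2:**
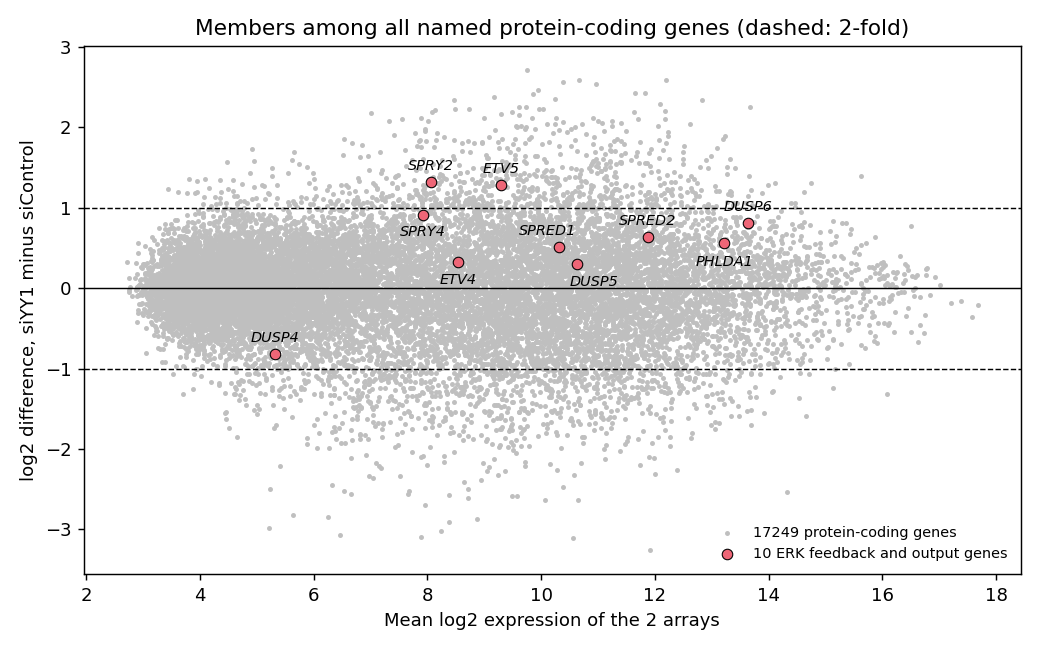
Difference (siYY1 minus siControl, log2, vertical axis) against the mean log2 expression of the 2 arrays (horizontal axis) for 17249 protein-coding genes (grey) and the 10 members (red), with dashed lines at 2-fold. SPRY2 and ETV5 lie above the upper line, 7 members lie between 0 and that line, and DUSP4 lies below 0 among dim genes.

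Over all 17249 genes, differences had an SD of 0.62, and SPRY2, SPRY4, SPRED2, DUSP4, DUSP6 and ETV5 were farther from 0 than this. As deposited, SPRED2 at 0.48 and DUSP6 at 0.62 fell short of the SD of 0.63. Among the 8625 genes at or above the brightness minimum the SD was 0.75, and SPRY2, SPRY4, DUSP6 and ETV5 were past it. SPRY2 and SPRY4 were in this set only through their siYY1 values. Below the minimum the SD was 0.45, and DUSP4, the member in that set, was past it. The share of all genes past each SD was not counted, so these members have no background beside them. Ranked from the highest difference, the 9 higher members lay between 337 for SPRY2 and 4763 for DUSP5 of 17249.

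All 10 members kept their direction with the values as deposited, with arrays centred on their medians and with a loess fit on brightness removed. SPRY2 ranged from 1.21 to 1.32 and ETV5 from 1.11 to 1.29, past 2-fold under each of these scalings. DUSP5 ranged from 0.10 to 0.32 and ETV4 from 0.16 to 0.32, so these 2 came closest to 0. Centred on medians, the median of the members was 0.37. With the values as deposited, 9 of the members were above 0, against 53.2% of all genes and 43.2% of those at or above the brightness minimum. On that scale 4.2% of all genes passed 2-fold upward and 6.86% downward.

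**Figure D3:**
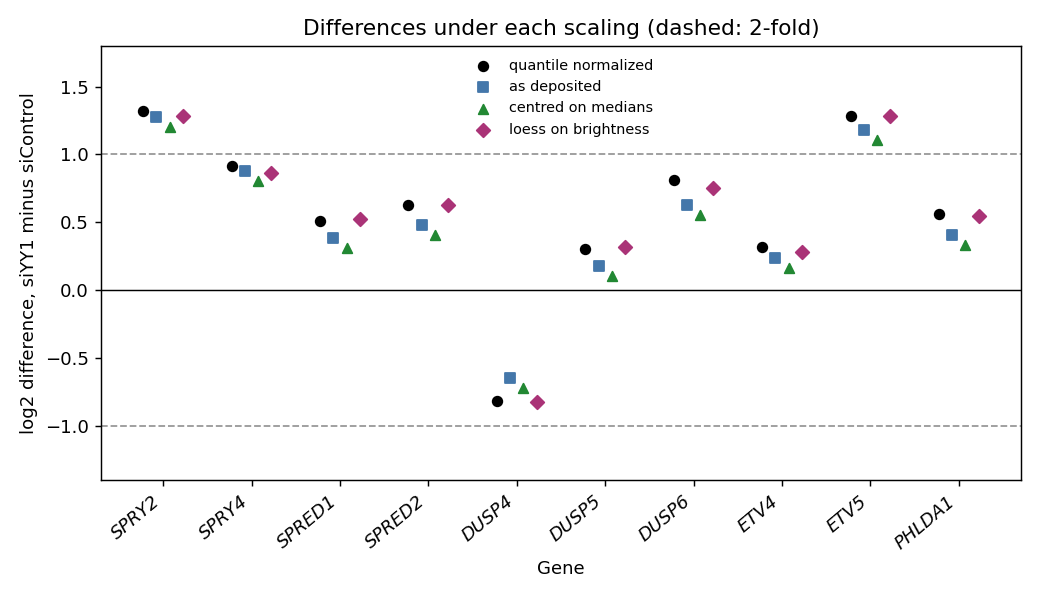
Difference (siYY1 minus siControl, log2, vertical axis) of each member (horizontal axis) under 4 scalings of the arrays, marked by symbol, with dashed lines at 2-fold. SPRY2 and ETV5 stay above the upper line in all 4, and DUSP5 and ETV4 lie nearest to 0.

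Other genes that ERK induces lay on both sides of 0, most of them below it. Of 20 named on the array, 6 were higher and 14 lower, with a median of -0.28, and the direction of that median was the same under all 4 scalings. IER5, an immediate early gene, was the one gene past 2-fold, with siYY1 at 7.94 against 8.99 and a difference of -1.05. EGR3, an early growth response factor, was farthest on the other side at 0.92, from dim values of 4.28 and 5.21, and as deposited it passed 2-fold at 1.08. The following were picked out after their values were seen. The AP-1 subunits FOSL1 and FOSL2 differed by -0.88 and -0.79, and the cyclin D1 gene CCND1 by -0.54. EGR1, a direct target of ERK and ETS factors, differed by 0.59. Also higher were MAFF by 0.84 and ZFP36 by 0.69, both above the dim range on both arrays. The difference between this list and the 10 members was not tested.

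Genes of ERBB ligands, which start the pathway and are also induced by it, were lower in all 3 named. TGFA had 11.0 in siControl against 10.1 in siYY1 and differed by -0.91, and EREG, which encodes epiregulin, was at 13.8 and 13.3, a difference of -0.51. HBEGF had both values in the dim range, that of siControl above all the dim genes on its own array, and differed by -0.48. None passed 2-fold after quantile normalization, but TGFA did as deposited, at -1.05.

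Among 9 receptors and adaptors, 6 were higher, 2 of them at least 2-fold, and 1 was at least 2-fold lower. All 9 reached the brightness minimum, where 7.97% of genes passed 2-fold upward and 9.28% downward. EGFR, the epidermal growth factor receptor gene, had 8.95 in siControl against 10.3 in siYY1 and differed by 1.36. The RAS exchange factors diverged: SOS1 was at 11.3 and 13.2, a difference of 1.94, while SOS2 was at 7.70 and 6.28, a difference of -1.41 with its siYY1 value in the dim range. Of 9 named genes of the RAS-ERK cascade, 6 were higher. MAP2K2, which encodes the kinase MEK2, had 12.2 in siControl against 13.7 in siYY1 and differed by 1.49. RPS6KA1, which encodes the ERK-activated kinase RSK1, was at 12.7 and 11.1, a difference of -1.55. The values of MAP2K2 and RPS6KA1 were well above the dim range on both arrays.

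Of 7 other ETS factors 4 were higher, and ETV1 was the only one past 2-fold. ETS1 was next farthest from 0 at 0.78, from dim values of 5.66 and 6.44. Of 7 other inhibitors of the pathway 3 were higher. Besides NF1, CBL, which encodes a ubiquitin ligase that acts on receptors and binds Sprouty proteins, passed 2-fold, with 8.19 in siControl against 9.29 in siYY1 and a difference of 1.10. Only 1 of NF1 and CBL passed with arrays centred on medians. Over all 65 named genes of these 8 lists, 32 were higher and 33 lower, 6 at least 2-fold in each direction, with a median of -0.02. Of the 65, 49 reached the brightness minimum. Among all genes that did, 7.97% passed 2-fold upward and 9.28% downward, against 4.61% and 5.67% of all genes.

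**Figure D4:**
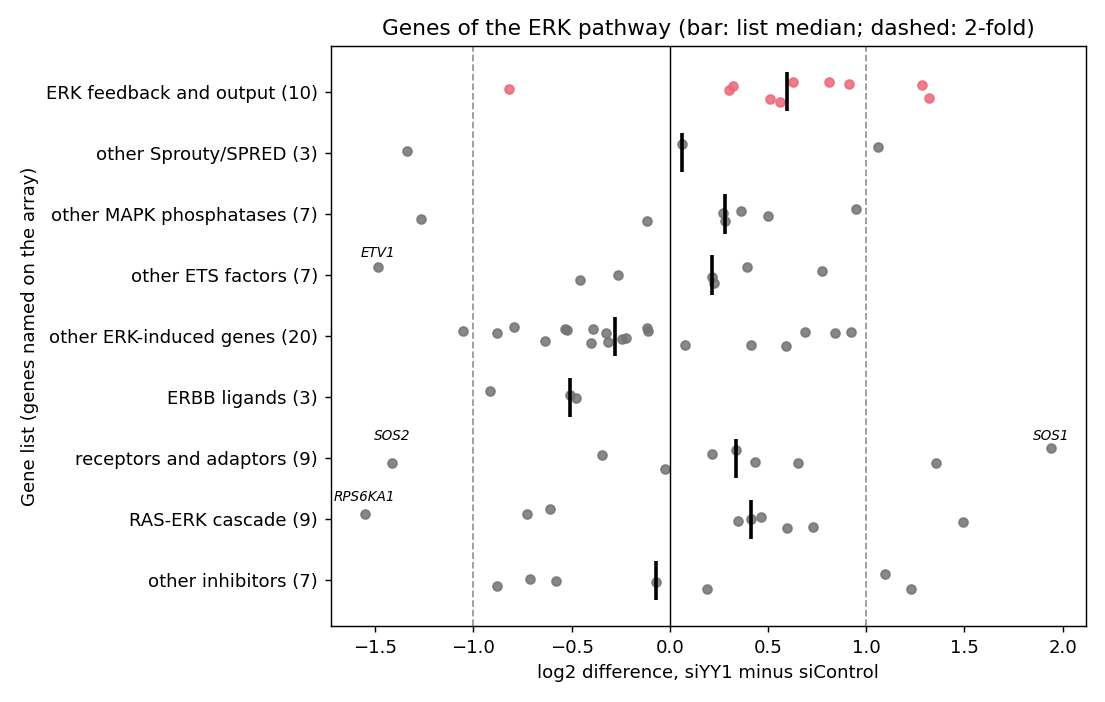
Difference (siYY1 minus siControl, log2, horizontal axis) of each gene in 9 lists of the ERK pathway (vertical axis, number of genes named on the array in brackets), with the 10 members in red, a black bar at each list's median and dashed lines at 2-fold. The median is 0.59 for the members and -0.28 for the other ERK-induced genes, and SOS1 and RPS6KA1 lie farthest out.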

How the data were processed

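Whole-transcript arrays, 1 per group, were labelled with biotin, per the labels' protocols. The authors deposited 1 value per probe set and array, 21448 in all, taken here as log2 from their range. Software, background correction and normalization were not given in the sources used here. Because the arrays' percentiles differed, the pair was quantile normalized. A platform annotation named 1 gene for 17709 probe sets and none for 3739, which were left out. Gene IDs were looked up in RefSeq (GRCh38.p14) for current symbols, all 17687 were found, and 17249 protein-coding genes were used. Several probe sets of a gene were averaged.

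Genes were counted at 2-fold, with no test. The members and lists were chosen with earlier results of these data known. By rule, all members were named, the dim genes that set their range and, in other pathway lists, genes past 2-fold and the 2 farthest from 0. SPRED3, DUSP9, HBEGF, FOSL1, FOSL2, CCND1, EGR1, MAFF, ZFP36, MBP and PRM1 were named outside it, after their values were seen. The rule also did not cover the cell type markers EPCAM, CDX1, LGALS4 and VIL1. Not named on the array were 10 of the 75 genes in these lists, which are not analysed here. In simulated data for this comparison with low noise, 99 of 100 genes planted at 1.5 and all 100 at 3 (log2) were recovered among 17249 genes, with 8 unchanged genes past 2-fold. Alternatives were 3 other scalings (loess span 0.3), the brightest probe set, brightness filters and thresholds of 1.5-fold and 3-fold. Python 3.11.15, numpy 2.4.6, pandas 2.3.3, statsmodels 0.14.6 and matplotlib 3.10.9 were used.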

Additional observations from a re-analysis of the deposited data

How the results depend on the processing

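Each member kept its direction with loess on brightness, with centring on medians and with no further scaling. Taking the brightest probe set could change nothing, because each member had 1 probe set. Of 40 values of single members under alternatives, 34 were within 1.5 times the value given and 6 were not, all of them smaller. The 34 include the brightest probe set values, which are identical to those given and say nothing about robustness. The median of the members was 0.37 with arrays centred on medians, against 0.59. The 2 members at least 2-fold higher became 5 at 1.5-fold, 0 at 3-fold and 0 among the 4 members past the 75th percentile of brightness, where SPRY2 and ETV5 were not included. DUSP5 passed that percentile, 10.6, only through its siYY1 value of 10.8, with 10.5 in siControl. At 1.5-fold, 1 member was lower, DUSP4. After the data were seen, the median was also taken without SPRY2 and ETV5, at 0.54, and without DUSP4, at 0.63. No paired analysis was possible because each group had 1 array. For the same reason no array could be left out. The number of arrays limits the precision, and SPRY2, SPRY4 and DUSP4 had at least 1 value within the range of the dim genes. For SPRY2 and SPRY4 this was the siControl value, which lay above all the dim genes in siControl.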
